A study of Saccharomyces cerevisiae with 31 samples.

Results

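In budding yeast, *Saccharomyces cerevisiae*, 10 genes known for being switched on under stress or in stationary phase were followed through 3 mutants of SPT6. They are RTN2 (YDL204W), DDR2 (YOL052C-A), SPI1 (YER150W), YGP1 (YNL160W), HBT1 (YDL223C), FMP45 (YDL222C), MSC1 (YML128C), OM45 (YIL136W), HOR7 (YMR251W-A) and TMA10 (YLR327C). They were picked by name as stress-induced genes with large changes in these same data, so their fold changes against wild type (WT) describe how they were chosen and support nothing. For the spt6-1004 mutant 5668 genes entered the authors' adjustment; 9 of the 10 are known to be among them, and for TMA10 this is not known. The products mostly sit in the cell wall or in a membrane, but the set is not uniform. TMA10 encodes a ribosome-associated protein, HBT1 a protein named for binding the ubiquitin-like Hub1, and MSC1 a protein named for a role in meiotic recombination. The table for spt6-1004 listed 9 of the 10, that for spt6-S8A 3 and that for spt6-S8E 0. In all they listed 694, 23 and 1 genes. Of the genes adjusted, 5.63% of 5668, 3.25% of 431 and 0.0176% of 5668 were called higher. The fall from 9 to 3 to 0 is thus not particular to the members.

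Spt6 is a histone chaperone that travels with RNA polymerase II, and the study asks what its phosphorylation by casein kinase 2 does. RNA was measured in 4 genotypes with 3 libraries each: WT, spt6-1004, spt6-S8A and spt6-S8E. The spt6-1004 allele is a mutant form of Spt6 in wide use; by their names and the study's question, S8A puts alanine and S8E glutamate in the place of phosphorylated serines. All strains grew in YPD, a rich medium with glucose, at 30 °C, and were harvested in growth at an optical density of 1, before the stationary phase in which these genes are best known. The labels do not say whether replicates were separate cultures, so the errors can be technical. The deposited tables give each gene's base mean over the libraries, its log2 fold change against WT and the standard error (SE) of the authors' DESeq2 fit. They hold no value per library, and the depth of the libraries is unknown. A gene is called here when it is in the authors' table, which needs an adjusted p under 0.05. SPT6 itself was in none of the tables, and these alleles alter the protein, so its transcript does not check the labels.

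In yeast, falling glucose and many stresses lower the activity of protein kinase A, and the transcription factors Msn2 and Msn4 then enter the nucleus and switch on a broad set of genes. Cells entering stationary phase also rebuild their surface: the wall thickens, wall glycoproteins are exchanged, and membrane domains called eisosomes take on other proteins. During fast growth on glucose the genes of this programme are mostly kept low.

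The largest change of the listed genes was that of RTN2, a reticulon that bends the membrane of the endoplasmic reticulum (ER) into tubules. In the authors' deposited table its log2 fold change in spt6-1004 was 4.65 (SE 0.32), which is 25.2-fold higher than WT with a 95% interval of 16.2- to 39.0-fold. RTN2 lies on chromosome IV from 94605 to 95786 (R64, coding gene) and ranked at 4 by log2 fold change among the 319 genes called higher. MSC1, on chromosome XIII from 15135 to 16676, was at 3.80 (SE 0.35) in the authors' deposited table, or 13.9-fold higher. HBT1, whose product also helps shape the mating projection, was at 3.42 (SE 0.29) in the authors' deposited table, or 10.7-fold higher. It lies on chromosome IV from 57265 to 60405. These values set the upper end of the set, and the interval of RTN2, which starts at 4.02, lay above those of 7 other listed members, all except MSC1. Fold changes at low base means can have been shrunken toward 0, which could widen the lead of RTN2 over DDR2, OM45 and FMP45.

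HOR7 and DDR2 are paralogs that encode very small proteins, with coding lengths of 180 and 186 bp. HOR7 is named for its response to high osmolarity and DDR2 for its response to DNA damage. HOR7, at 774752 to 774931 on chromosome XIII, stood at 2.94 (SE 0.34) in the authors' deposited table. DDR2, at 231570 to 231755 on chromosome XV, stood at 2.70 (SE 0.49) in the authors' deposited table. These correspond to 7.69-fold and 6.49-fold increases, and the gap of 0.24 between the log2 fold changes was smaller than its SE of 0.59. The base mean of HOR7 was 26.7 and that of DDR2 7.17 in the authors' deposited table, and the lower level goes with the wider error.

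OM45, a protein of the mitochondrial outer membrane, was at 2.67 (SE 0.49) in the authors' deposited table. FMP45, a member of the Sur7 family of plasma membrane proteins found at eisosomes, was at 2.57 (SE 0.47) in the authors' deposited table. OM45 lies on chromosome IX from 93619 to 94800 and FMP45 on chromosome IV from 60872 to 61801. Both increases, 6.38-fold and 5.93-fold, rest on low levels: base means of 6.83 and 7.58 in the authors' deposited table, which times 12 make 82 and 91 units over all libraries. If those units are reads, which the sources used here do not say, few reads stand behind each value.

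Among the listed genes, the cell wall genes SPI1 and YGP1 had the smallest increases. SPI1 was not set apart from FMP45, as the gap of 0.36 was smaller than its SE of 0.58. SPI1 encodes a wall protein anchored through glycosylphosphatidylinositol (GPI) and is known for its induction in stationary phase. In the authors' deposited table it stood at 2.21 (SE 0.33), or 4.61-fold higher. YGP1, a secreted wall glycoprotein induced by nutrient limitation, was at 2.04 (SE 0.24) in the authors' deposited table, or 4.12-fold higher. SPI1 lies on chromosome V from 468370 to 468816, and YGP1 on chromosome XIV from 336545 to 337609. YGP1 had the highest base mean of the listed genes, 98.2, and the smallest SE.

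**Figure D1:**
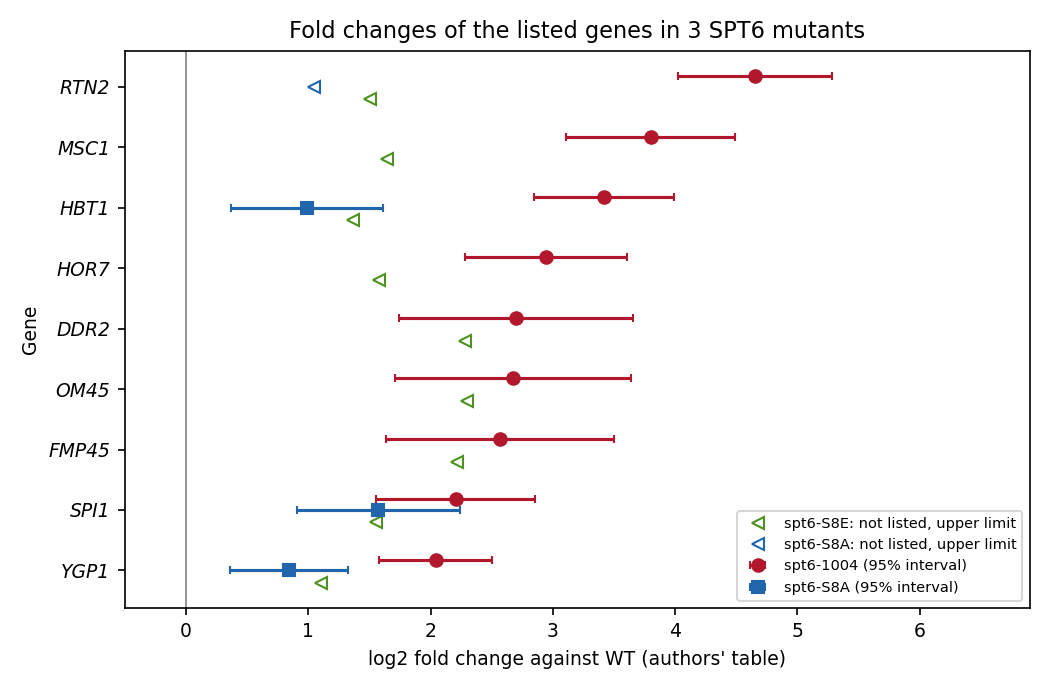
Log2 fold change against WT (x axis) of the 9 listed genes (y axis), with 95% intervals from the authors' SE; open triangles are upper limits for genes not listed. The spt6-1004 values run from 2.04 for YGP1 to 4.65 for RTN2, and the 3 spt6-S8A values from 0.84 to 1.57.

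Across the 9 listed genes the log2 fold changes ran from 2.04 to 4.65, with a median of 2.70. The median over all 319 genes called higher was 1.64. The authors called 5.63% of the 5668 genes higher, and since the members were picked on this contrast, nothing is read from their count of 9 of 10. The 9 were also called at an adjusted p under 0.01, where 3.62% of genes were called higher, and at a log2 fold change of 1 or more, where 5.2% were. The order of the members is loose: in none of the 8 pairs of neighbours in it did the gap exceed 1.96 times its SE. Every listed member had an adjusted p of at most 2.13e-06 in the authors' deposited table (DESeq2 Wald test, Benjamini-Hochberg). The pick for large changes favours such values and the calls at stricter thresholds, so nothing is read from either. TMA10 was in none of the authors' tables, so in spt6-1004 it either missed the threshold or was not adjusted. Suppose it was adjusted, with an SE no larger than the largest in the table (0.54). Its estimated log2 fold change was then under 1.47 in size, or 2.77-fold. In a culture measured in bulk, more transcript in every cell and more cells that express the gene cannot be told apart.

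The base mean gives a further limit on the WT levels. Base mean times 12 was whole in every listed row, as a fit without scaling between libraries gives. The 4 genotype means then add up to 4 times the base mean. With the deposited fold change this leaves a highest possible level for WT. For RTN2 this was 10.8 beside a base mean of 70.8, and for MSC1 8.60 beside 32.1. For YGP1, where both fold changes were used, it was 56.9 beside 98.2. The WT level of RTN2 and MSC1 thus lay well under the base mean, which for a strongly raised gene is not its level in WT. If the libraries were not scaled before the fit, a difference in depth between genotypes would shift all fold changes of a mutant alike. The SE would not show such a shift.

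**Figure D2:**
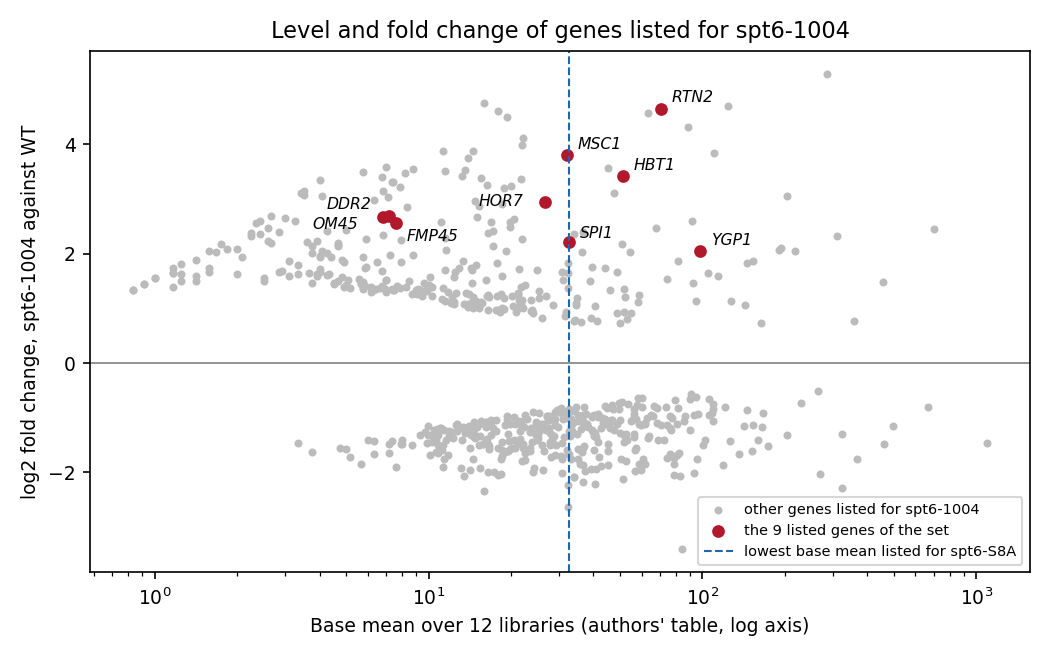
Base mean over 12 libraries (x axis, log scale, authors' unit) against log2 fold change in spt6-1004 (y axis) for the 694 listed genes. The 9 listed members (red) lie in the upper part of the plot; the dashed line marks 32.6, the lowest base mean listed for spt6-S8A, and 5 of the 9 lie to its left.

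The comparison with spt6-S8A asks what changes when the serines cannot be phosphorylated. Here 3 members, SPI1, HBT1 and YGP1, were called higher. SPI1 by the authors' deposited table was at 1.57 (SE 0.34), or 2.97-fold higher with a 95% interval of 1.88- to 4.71-fold and an adjusted p of 0.000295 (DESeq2). Only SER3 and the chaperone gene SSA3 had larger increases in that table. In the authors' deposited table HBT1 was at 0.99 (SE 0.32) and YGP1 at 0.84 (SE 0.24), or 1.99- and 1.79-fold higher, with DESeq2 adjusted p-values of 0.0447 and 0.0248. The authors called 3.25% of the 431 genes in this adjustment higher. The members were chosen with these values in view, so the 3 are given as a description. SPI1 alone was left at an adjusted p under 0.01, where 1.62% of genes were called higher, and at a log2 fold change of 1 or more, where 1.39% were.

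Those 431 genes look like the ones above a minimum base mean, because no gene in the spt6-S8A table was under 32.6, the value of SPI1 itself. Among the listed members RTN2, HBT1, SPI1 and YGP1 reach that level. The other 5 do not, with MSC1 just short of it at 32.1, and whether any of these 5 changed in spt6-S8A is not known from the tables. RTN2 was high enough to be adjusted and was not listed. The ratio of its log2 fold change to its SE (the Wald statistic) therefore did not exceed 2.99 in size. The SE of the 23 genes in both tables was 0.87 to 1.09 times as large in spt6-S8A as in spt6-1004. With the upper ratio, the estimated log2 fold change of RTN2 in spt6-S8A was under 1.05 in size, compared with 4.65 in spt6-1004. All 23 genes were called in spt6-S8A, so a gene not called there can have a higher ratio and limit. HBT1 at 0.99 lies within the limit of 1.05, so RTN2 and HBT1 are not shown to differ in spt6-S8A.

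The values of the 3 shared genes can be set side by side; the comparisons share the WT libraries, which cancel in the difference between mutants. These differences were not compared with each other. HBT1 was higher in spt6-1004 than in spt6-S8A by 2.43 on the log2 scale (SE 0.43, 95% interval 1.58 to 3.27). YGP1 was higher in spt6-1004 by 1.20 (SE 0.34, 95% interval 0.53 to 1.87). For SPI1 the difference was 0.63 (SE 0.47), and its interval of -0.30 to 1.56 includes 0. Of these genes HBT1 had the largest fold change in spt6-1004, and SPI1 in spt6-S8A. These errors treat the deposited SE as independent, which counts the error of WT in both. The intervals can thus be too wide, and whether SPI1 differs between the mutants is not settled. No test was run because the genes were chosen on these values. SER3, the gene listed for all mutants, had a difference of 1.24 (SE 0.41), and the 14 genes called higher in both mutants ranged from 0.04 to 3.16.

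Likeness was sought only among the 23 genes listed for both spt6-1004 and spt6-S8A, by the distance between their pairs of log2 fold changes. The gene most like HBT1 was TDH1, a glyceraldehyde-3-phosphate dehydrogenase gene, at 3.56 in spt6-1004 and 1.32 in spt6-S8A (authors' deposited table). The Hsp70 gene SSA4 came next, at 3.05 and 0.88 in the authors' deposited table. The gene most like YGP1 was RPN4, the transcription factor of proteasome genes, at 1.76 and 0.93 in the authors' deposited table. SPI1 had no match as close among these genes. Its nearest gene, the trehalase gene NTH1, was at 2.48 and 0.89 in the authors' deposited table, 0.73 away, and YGP1 came next at 0.75. HBT1 and TDH1 were 0.36 apart, and YGP1 and RPN4 0.30. These distances take no account of the SE, which for SPI1 was 0.33 in spt6-1004 and 0.34 in spt6-S8A. Likeness over 2 comparisons is a description and says little.

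In spt6-S8E, with glutamate at these positions, 0 members were listed by DESeq2; the authors called 0.0176% of the 5668 genes higher, which is SER3 alone. Unadjusted p-values of unlisted genes and counts by another tool cannot be had from the tables. For any other adjusted gene the Wald statistic could not exceed 4.29 in size. The SE is taken as at most 1.09 times that in spt6-1004, which is not known for unlisted genes. Together these bound the members' estimated log2 fold changes at 1.11 for YGP1 up to 2.30 for OM45. A gene picked for a large Wald statistic in spt6-1004 has a bound under its value there by construction, so nothing is read from that. For RTN2 the bound was 1.51 beside 4.65. For DDR2, OM45 and FMP45 the bounds of 2.29, 2.30 and 2.22 lie inside their spt6-1004 intervals, which start at 1.74, 1.71 and 1.64. For SPI1 it was 1.55 beside 2.21 in spt6-1004 and 1.57 in spt6-S8A. For YGP1 and HBT1 the bounds of 1.11 and 1.36 lie above their spt6-S8A values of 0.84 and 0.99, so changes of that size would not have been listed in spt6-S8E.

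Several members have relatives in the genome, and these did not all move with them in spt6-1004. In the authors' deposited table RTN1, the other reticulon gene, stood at -1.93 (SE 0.30; DESeq2 adjusted p 3.39e-09), or 3.82-fold lower. It lies on chromosome IV from 929470 to 930357. The log2 fold changes of RTN2 and RTN1 were 6.59 apart (SE 0.44). In the Sur7 family, SUR7 itself was lower at -1.67 (SE 0.42) in the authors' deposited table, while FMP45 was higher. PUN1, a family member named for its rise in nitrogen stress, was higher at 1.22 (SE 0.41) in the authors' deposited table, and YNL194C, the closest relative of FMP45, was not listed. Reticulons and the Sur7 family thus each held a gene that rose and one that fell.

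The remaining relatives were either raised or not listed. STF2, the paralog of the unlisted TMA10, was higher at 1.54 (SE 0.49) in the authors' deposited table, with a base mean of 5.58. SED1, the wall protein most like Spi1 and the major GPI-anchored wall protein of stationary cells, was not listed. SPS100, the spore wall relative of YGP1, was not listed either. Of the 7 relatives outside the set, 2 were called higher and 2 lower, where 5.63% and 6.62% of all genes were called. Paralogs of near-identical sequence can share reads; how far that applies to these pairs was not tested.

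**Figure D3:**
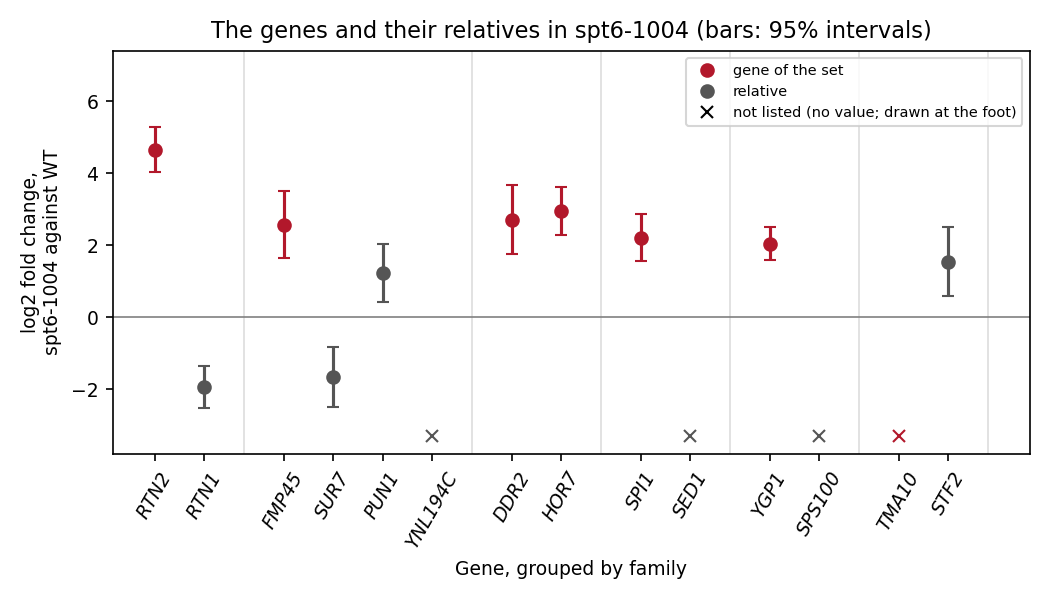
Log2 fold change in spt6-1004 against WT (y axis) of genes of the set (red) and their relatives (grey), by family along the x axis, with 95% intervals. RTN2 at 4.65 and RTN1 at -1.93 lie on opposite sides of 0, as do FMP45 at 2.57 and SUR7 at -1.67; crosses at the foot are genes not listed, which have no value.

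The counts for genes of the members' own compartments are read beside the 5.63% of all genes called higher and the 6.62% called lower in spt6-1004. Of 17 cell wall mannoprotein genes outside the set, 3 (17.6%) were called higher and 0 lower. They were PIR3 at 3.22 (SE 0.49), HSP150 at 1.48 (SE 0.26) and CWP2 at 0.78 (SE 0.18) in the authors' deposited table; PIR3 and HSP150 encode wall proteins with internal repeats, and CWP2 a GPI-anchored one. Of 14 genes of eisosomes and the membrane compartment around them, 2 (14.3%) were higher and 1 (7.14%) lower. LSP1, which builds the eisosome coat, was at 1.26 (SE 0.33) in the authors' deposited table, and the other listed genes were PUN1 and SUR7. Of 5 genes that shape the ER, 0 were higher and RTN1 alone was lower. Of 23 genes of the mitochondrial outer membrane besides OM45, 1 was higher and 1 lower, 4.35% each, which is near the share of all genes. These were MCR1, a cytochrome b5 reductase gene, at 1.15 (SE 0.32) and TOM5, a small subunit of the protein import channel, at -1.24 (SE 0.40) in the authors' deposited table. The counts in these lists are small and say little beside the share of all genes.

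Of 13 genes for small stress proteins and small plasma membrane proteins, 4 (30.8%) were called higher, 3 (23.1%) lower and 6 were not listed, beside 5.63% and 6.62% of all genes. HSP12, whose product binds and steadies membranes under stress, was at 4.32 (SE 0.51) in the authors' deposited table. The hydrophilins GRE1 and SIP18, small proteins made on drying and osmotic stress, were at 3.89 (SE 0.48) and 3.08 (SE 0.53) in the authors' deposited table, and the fourth was STF2. The lower genes were PMP2 at -1.67 (SE 0.49), PMP3 at -1.07 (SE 0.37) and MRH1 at -0.93 (SE 0.28) in the authors' deposited table. PMP2 encodes a proteolipid bound to the proton pump, PMP3 a small membrane protein that bears on membrane potential, and MRH1 a plasma membrane protein related to Hsp30.

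Of 15 genes known for high expression in stationary phase, 10 (66.7%) were called higher and 0 lower, beside 5.63% and 6.62% of all genes, with a median of 3.12 among those called. SSA3, at 5.28 (SE 0.45) in the authors' deposited table, was the highest of them. HSP26, a small heat shock protein, was at 3.85 (SE 0.27), and CTT1, the cytosolic catalase, at 3.39 (SE 0.42) in the authors' deposited table. HSP104, a disaggregase, was at 2.32 (SE 0.20) in the authors' deposited table. The 5 genes not listed were SNO1, SPG1, SPG5, SPS100 and RGI2. The list includes heat shock genes such as HSP26 and HSP104, so its share is not particular to stationary phase. Of this list only SSA3 was listed for spt6-S8A. GRE1 and SIP18 count in this list and in the preceding one, and all lists were chosen with earlier results of these data known.

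Among 26 genes of the stress regulators and the protein kinase A pathway, 1 was higher and 1 lower, 3.85% each. With 1 gene each way, this is not set apart from the 5.63% and 6.62% of all genes. XBP1, a repressor made under stress and in quiescence, was at 2.01 (SE 0.52) in the authors' deposited table, with a base mean of 4.25. IRA2, which restrains Ras, by the authors' deposited table was at -0.61 (SE 0.21; DESeq2 adjusted p 0.0349). MSN2, MSN4, GIS1, RIM15 and HSF1 were not listed; a transcript level does not show how active these factors were. Of 12 sporulation markers, DIT1 at 2.85 (SE 0.47) and IME2 at 1.64 (SE 0.52) were higher in the authors' deposited table, with base means of 8.33 and 3.67, a share of 16.7%. Of 9 mating type markers, STE2 was higher at 0.87 (SE 0.29) in the authors' deposited table, a share of 11.1%. No sporulation or mating type marker was called lower, and counts this small say little beside the share of all genes. Their part in the changes of the members was not tested.

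**Figure D4:**
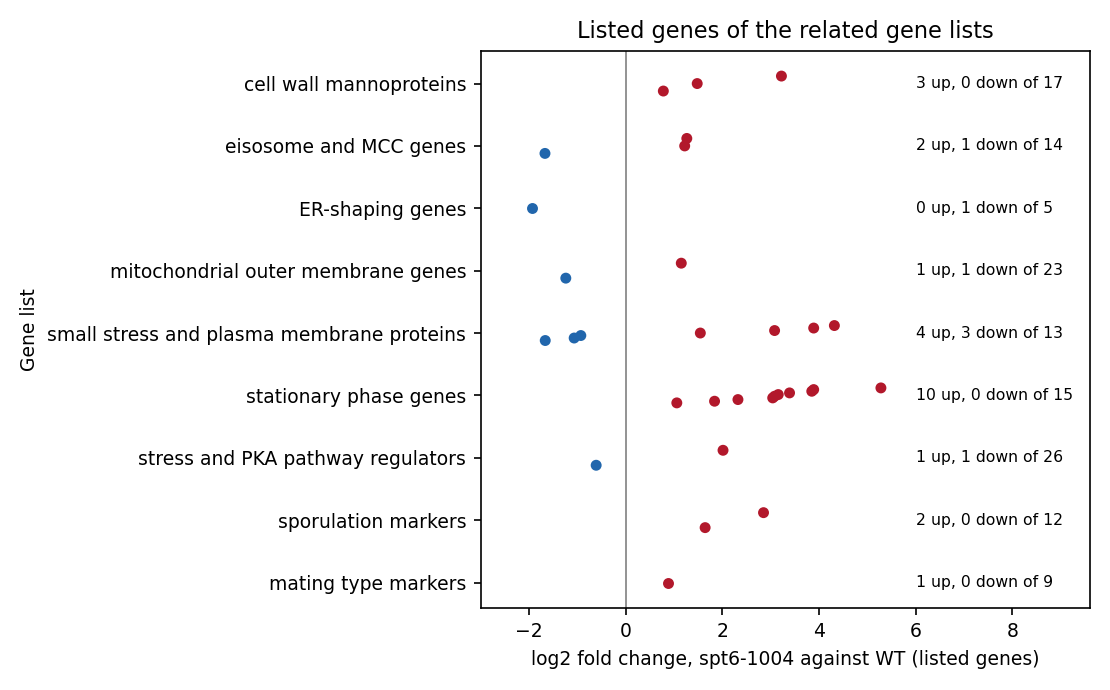
Log2 fold change in spt6-1004 (x axis) of the listed genes of each fixed gene list (y axis), with the counts called up (red) and down (blue) of all members at the right. The stationary phase list has 10 of 15 genes up, from 1.06 to 5.28, whereas the mitochondrial outer membrane list has 1 up and 1 down of 23.

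The members lie on 7 chromosomes, and the change of a member did not come with a listed gene next to it except in 1 place. HBT1 and FMP45 are neighbours on chromosome IV, on the same strand, with 466 bp between their coding regions, and FMP45 is the first of them in the direction of transcription. Both are members. The other 18 genes next to a member were all absent from the authors' spt6-1004 table, where 12.2% of adjusted genes were called either way. At the largest SE of the table, an adjusted gene that is absent can still have an estimate of up to 2.77-fold. Its true change can be larger. Of the 18, 2 are transfer RNA genes that a gene table of this kind need not test. PEA2 and RSC9, which start back to back with SPI1 and MSC1 at distances of 899 and 387 bp, were among the absent genes, as was TMA108, 830 bp from OM45.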

How the data were processed

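RNA-seq of 12 libraries (4 genotypes, 3 each) was used; 19 chromatin immunoprecipitation and input samples were not analysed here. The submitters' processing notes name STAR 2.5.2b and Salmon 0.8.1, with cutadapt 1.10, SAMtools 1.3.1 and bedtools 2.26, as well as DESeq2 1.14.1 and build sacCer3, but no role or order. Per the labels' protocols, stranded libraries were made after depletion of ribosomal RNA and addition of ERCC spike-ins.

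Per the file headers, the authors' deposited tables hold a base mean (a signal of unstated unit), a log2 fold change with its SE, a Wald statistic (a score) and p-values, raw and adjusted. Base mean times 12 was whole in 694, 23 and 1 rows (tolerance 1e-06). A fit without scaling between libraries gives such values, so the fold changes rest on any scaling done before that fit. The numbers of genes adjusted, 5668, 431 and 5668, were recovered from the deposited p-values by inverting the Benjamini-Hochberg formula, which then matched every listed row; the single spt6-S8E row matches by construction. The recovery was tested on simulated data. Since the ranks have no gap, an absent gene missed the threshold or was not adjusted.

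Intervals are the log2 fold change plus and minus 1.96 SE. Limits for unlisted genes use the largest Wald statistic that adjustment allows. They bound the estimated log2 fold change, and the true change can be larger. Whether the fold changes were shrunken is not given. In spt6-1004 no SE exceeded 0.54 although base means ran down to 0.83, as shrinkage would give. The fold changes and intervals at low base means can thus be shrunken values, which would understate the changes. Python 3.11.15, pandas 2.3.3 and scipy 1.17.1 were used. Names and coordinates come from RefSeq (R64); 689 of 694 identifiers matched. The text names the 10 members, listed genes of the fixed lists (up to 5 a list by adjusted p), adjacent genes, nearest patterns and SER3. The members and lists were chosen with earlier results of these data known. Alternatives were stricter thresholds, a base mean minimum, another adjustment and correlated errors.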

Additional observations from a re-analysis of the deposited data

How the results depend on the processing

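The deposited tables hold no values per library, so leaving out replicates could not be run. No paired analysis was possible because the tables carry comparisons and not the replicates. Promoter motif and protein alignment alternatives were not run, as no sequence was used here. In spt6-1004 the count of 9 members was the same with a threshold of 0.01 on the adjusted p, and with a minimum of 1 on the log2 fold change. The pick of the members for large changes favours this, so nothing is read from it. In spt6-S8A the count went from 3 to 1, SPI1, in each of 3 settings: a threshold of 0.01, a minimum log2 fold change of 1, and adjustment over 5668 genes, where at least 1 passes. In spt6-S8E it was 0 in each. Over all lists, genes called higher went from 22 to 14 at base means of at least 10, and genes called lower from 7 to 3 at an adjusted p under 0.01. With a correlation of 0.5 between the errors, as the shared WT libraries could give, the SE of the difference between spt6-1004 and spt6-S8A was 0.31 for HBT1, 0.24 for YGP1 and 0.34 for SPI1, whose interval of -0.02 to 1.29 still included 0. The actual correlation is not known, and a higher one would narrow the interval of SPI1 further. Other alternatives moved no count by over 1.5 times, except in single lists of up to 4 called genes.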

Other observations

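Beyond the adjacent genes, strongly raised genes lay near some members. This window of 10000 bp on either side was chosen after the values were seen. YDL218W, a gene of unknown function, was at 4.62 (SE 0.46) in the authors' deposited table and lies 4691 bp from FMP45 and 6087 bp from HBT1. GAD1, the glutamate decarboxylase gene, was at 4.58 (SE 0.32) in the authors' deposited table and lies 2193 bp from HOR7, and it was also listed for spt6-S8A. PHO84, the phosphate transporter gene, was at 3.06 (SE 0.53) in the authors' deposited table, 7360 bp from MSC1. In all windows together, 4 of 112 annotated genes were called higher (3.57%) and 7 lower (6.25%), where 5.63% and 6.62% of adjusted genes were called. The 112 can include genes that were not adjusted, so these shares are not fully alike. Of the 104 protein-coding genes in the windows 3.85% were called higher, beside 5.23% of all annotated protein-coding genes. No excess of genes called higher was seen near the members, and for genes called lower the like share was not taken. The genes called lower included the ribosomal protein genes RPL16A at -1.61, near OM45, and RPL38 at -1.07, near TMA10, in the authors' deposited table.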
